A study of Mus musculus with 8 samples.

Results

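The miR-130 and miR-301 seed family is a group of microRNAs (miRNAs) that share the same seed, the stretch near the 5′ end through which a miRNA recognises its target mRNAs. Here the family comprised mmu-miR-130a-3p, mmu-miR-130b-3p, mmu-miR-301a-3p, mmu-miR-301b-3p and mmu-miR-721 (mmu, mouse), which are 5 of the 1881 mouse miRNAs on the array. The 5 miRNAs were taken by name, and the family was chosen because miR-130b-3p was lower and miR-721 higher in 7 Gy sera than in 0 Gy sera. Their 7 Gy versus 0 Gy values were therefore used in the selection and are given as a description, with no p-value.

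Serum RNA of a 7 Gy group (4 irradiated samples) and a 0 Gy group (4 non-irradiated samples) was labelled with Cy3, and 30 ng of it went onto each 1-colour Agilent array. All mice were male C57BL/6NJcl animals aged 8 weeks. The 7 Gy group received a whole-body X-ray dose and its sera were taken after 72 h, whereas the time of the 0 Gy sera on the arrays is not named in the sources used here. The study describes its n as mice, while the labels do not name the animal behind each array.

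miRNAs that share a seed can bind the same sites in target mRNAs, so that family members are often considered together. Members of this family are known to repress Pparg, which encodes a nuclear receptor of adipocyte and vascular biology. miR-130b and miR-301b are made from neighbouring hairpins. In mouse fibroblasts, miR-130b, miR-301b and miR-721 are known to promote reprogramming to pluripotency through repression of Meox2. miRNAs in serum are carried in vesicles or bound to proteins and lipoproteins, and in serum a change in release, in clearance and in the number of releasing cells cannot be told apart.

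Mature sequences of 4 of the 5 members were found in RefSeq (mouse build GRCm38.p6). They are shown because the members with lower and with higher values after irradiation carry one seed and differ beyond it. Capitals mark the seed, bases 2 to 8.
miR-130b-3p: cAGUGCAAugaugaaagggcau
miR-130a-3p: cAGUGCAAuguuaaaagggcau
miR-301a-3p: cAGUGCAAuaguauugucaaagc
miR-721: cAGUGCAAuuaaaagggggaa
The mature miR-130b-3p lies at chr16:17124071-17124092 on the minus strand. Its hairpin is 257 bases from that of miR-301b, and both hairpins overlap the protein-coding gene 2610318N02Rik. miR-130a-3p lies at chr2:84741116-84741137 on the minus strand, and its hairpin overlaps no other gene of the annotation. miR-301a-3p lies at chr11:87113054-87113076 on the plus strand, within Ska2. miR-721 lies at chr5:136375777-136375797 on the minus strand, within Cux1, which encodes a homeodomain transcription factor.

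Outside the seed the members differ in length and composition. miR-130b-3p and miR-130a-3p carry the same base at 20 of 22 positions and share their first 10 bases. miR-130b-3p and miR-721 share their first 9 bases and are the same at 15 of the 21 positions of miR-721. After the seed, the longest run common to miR-130a-3p and miR-721 is uuaaaaggg (9 bases), and that common to miR-130b-3p and miR-721 is aaaggg (6 bases). miR-721 is the member with the longest run of G, 5 bases, against 3 in miR-130b-3p and miR-130a-3p and 1 in miR-301a-3p.

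The arrays differed in overall signal. Feature Extraction called 378 to 687 miRNAs detected on the 7 Gy arrays and 531 to 603 on the 0 Gy arrays. The labelling spike-ins, control RNAs added before Cy3 labelling, were out of their accepted range on 7 Gy replicates 1, 3 and 4 and in range on the other 5 arrays. 7 Gy replicate 2 stood apart from the rest of its group, with 687 miRNAs detected. The 90th percentile over all miRNAs was made equal between arrays, which multiplied the signals by 4.33, 0.379, 4.63 and 0.756 on 7 Gy replicates 1 to 4 and by 0.39 to 1.06 on the 0 Gy arrays. On the slide shared by all 8 arrays the groups occupied different columns, so that column effects and dose cannot be told apart, while both rows held both groups.

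Of the 5 members, miR-721 was detected on all 8 arrays and miR-130b-3p on 3 of 4 arrays at 7 Gy and 4 of 4 at 0 Gy. miR-130a-3p was detected on 1 of 4 arrays at 7 Gy and 4 of 4 at 0 Gy. Each of miR-301a-3p and miR-301b-3p was detected on 1 of 4 arrays at 7 Gy and 2 of 4 at 0 Gy. For miR-130a-3p, miR-301a-3p and miR-301b-3p the only irradiated array with a signal was 7 Gy replicate 2. The detection pattern of miR-130a-3p over the 8 arrays was shared by 56 of the 1881 miRNAs (2.98%), itself included, and that of miR-130b-3p by 14 (0.744%). The pattern common to both miR-301 members was shared by 39 (2.07%), and detection on all 8 arrays, as of miR-721, by 311 (16.5%).

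miR-130b-3p was the member with lower values at 7 Gy. Its signal before scaling was 13.3, 219 and 7.18 array units on 7 Gy replicates 1, 2 and 4, and it was not detected on replicate 3. On 0 Gy replicates 1 to 4 the signal was 829, 590, 191 and 262 array units. Before scaling the groups overlapped, since 7 Gy replicate 2 lay above 0 Gy replicate 3. After scaling, the signal was 57.6, 83.0 and 5.42 on 7 Gy replicates 1, 2 and 4, against 323, 266, 203 and 244 on the 0 Gy arrays. Scaling thus placed each irradiated array lower than each non-irradiated array. The mean scaled signal was 36.6 ± 40.3 at 7 Gy and 259 ± 49.99 at 0 Gy (SD, n = 4 each), with the array without detection entered near 0.

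**Figure D1:**
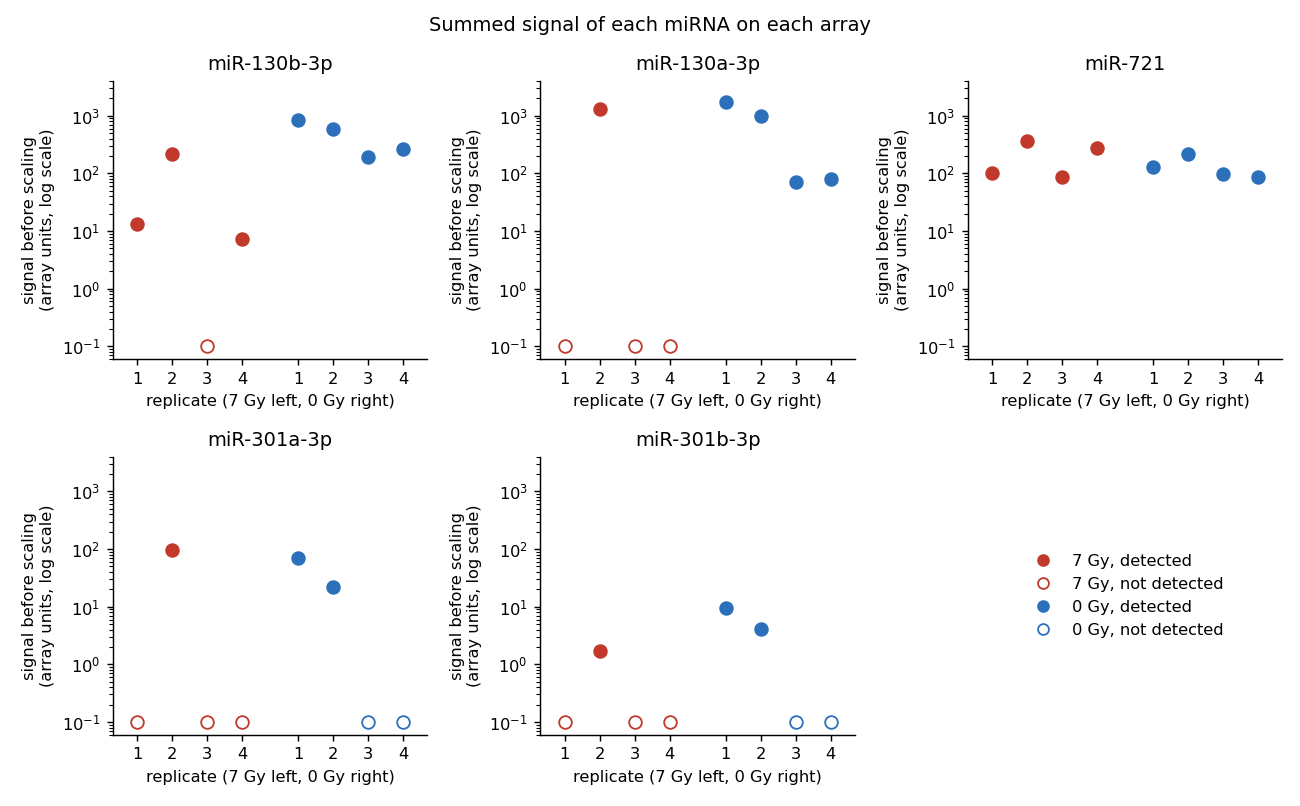
Signal of each member before scaling (array units, log axis) on every array, 7 Gy replicates in red on the left and 0 Gy replicates in blue on the right. Open circles mark arrays on which the miRNA was not detected, drawn at 0.1. miR-721 is filled on all 8 arrays, while the other members have open circles on 1 to 3 irradiated arrays.

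miR-721 was the member with higher values at 7 Gy. Before scaling, its signal was 103, 372, 88.3 and 270 array units on 7 Gy replicates 1 to 4, against 127, 216, 95.9 and 86.9 on 0 Gy replicates 1 to 4. These values overlapped, and only 7 Gy replicates 2 and 4 exceeded every 0 Gy array. Scaled signals were 447, 141, 409 and 204 at 7 Gy, against 49.4, 97.7, 102 and 80.7 at 0 Gy. Scaling thus placed each irradiated array higher than each non-irradiated array, and the mean was 300.1 ± 150 at 7 Gy and 82.5 ± 23.9 at 0 Gy (SD, n = 4 each). The separation of the groups for miR-721 thus came with the scaling, and the highest scaled values were those of 7 Gy replicates 1 and 3, whose signals were multiplied by 4.33 and 4.63.

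miR-130a-3p was present on all 0 Gy arrays but at unequal levels. Its signal before scaling was 1317 array units on 7 Gy replicate 2 and was not detected on 7 Gy replicates 1, 3 and 4. On 0 Gy replicates 1 to 4 the signal was 1747, 1001, 70.8 and 80.3 array units. 7 Gy replicate 2 thus lay within the range of the 0 Gy arrays. The scaled signal averaged 125 ± 249 at 7 Gy and 321 ± 299 at 0 Gy (SD, n = 4 each), and the difference was smaller than the spread within either group.

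miR-301a-3p and miR-301b-3p were detected on few arrays, and miR-301b-3p was close to the lowest signals detected. miR-301a-3p had 95.7 array units before scaling on 7 Gy replicate 2, against 68.9 and 21.6 on 0 Gy replicates 1 and 2. miR-301b-3p had 1.73 array units on 7 Gy replicate 2, against 9.53 and 4.03 on 0 Gy replicates 1 and 2. Neither was detected on 7 Gy replicates 1, 3 and 4 or on 0 Gy replicates 3 and 4. After scaling both lay below 100 on all 8 arrays, with miR-301a-3p at 36.2 at most. miR-301b-3p is the genomic neighbour of miR-130b-3p and was far weaker on 0 Gy replicates 1 and 2, where miR-130b-3p had 829 and 590 array units. At such low signals, its lack of detection on 0 Gy replicates 3 and 4 is not read as a difference between the neighbours.

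For comparison across all miRNAs, scaled signals under 100 were set to 100 (the floor), and log2 was taken. Differences were fitted with limma on 208 miRNAs that were detected on at least 3 arrays and exceeded the floor on at least 1. Of the 5 members, 3 entered this fit, since miR-301a-3p and miR-301b-3p lay at the floor on all 8 arrays. The log2 difference, 7 Gy minus 0 Gy, was −1.35 for miR-130b-3p (standard error 0.14), −0.66 for miR-130a-3p (standard error 0.93) and 1.42 for miR-721 (standard error 0.40). These standard errors come from the SDs within each group and are not those of limma. The floor sets part of these sizes. miR-130b-3p was at the floor on 4 of 4 arrays at 7 Gy, so its irradiated arrays show no spread and the difference is limited by the floor. Its standard error is also made small by the floor and does not measure precision. miR-721 was at the floor on 3 of 4 arrays at 0 Gy, and miR-130a-3p on 3 of 4 at 7 Gy and 2 of 4 at 0 Gy.

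The median log2 difference of all 208 miRNAs was 0.17. From the highest difference, miR-721 was at place 20 of 208. From the lowest, miR-130b-3p was at place 18 and miR-130a-3p at place 36. At an adjusted p under 0.05 (limma, Benjamini-Hochberg), 4 of 208 miRNAs (1.92%) were called higher at 7 Gy, and 46 were higher at an unadjusted p under 0.05. There were 4 (1.92%) called lower, and 16 were lower at an unadjusted p under 0.05. The 7 Gy arrays were all above the 0 Gy arrays in 14 of 208 miRNAs (6.73%), among them miR-721, and all below them in 11 of 208 (5.29%), among them miR-130b-3p. Because the members were selected on this contrast, these counts are only the background, and nothing is read from them about the members.

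**Figure D2:**
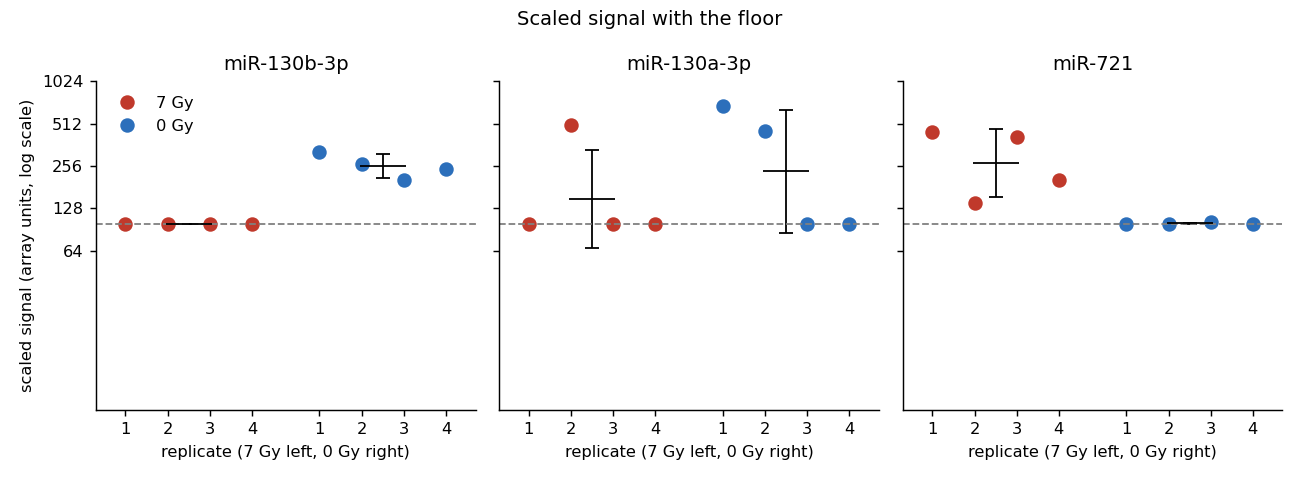
Scaled signal of the 3 fitted members (array units, log axis) on every array, 7 Gy in red on the left and 0 Gy in blue on the right, with values under 100 set to 100 (dashed line). Horizontal bars are the means of log2 values and error bars their SD (n = 4). All 4 irradiated arrays of miR-130b-3p and 3 of 4 non-irradiated arrays of miR-721 lie on the dashed line.

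The scaling cancels when the signals of a pair of members are divided within the same array, although such a ratio shows only that the members changed unequally. The ratio of miR-130b-3p to miR-721 was 0.129, 0.590 and 0.0266 on 7 Gy replicates 1, 2 and 4. On 7 Gy replicate 3 it was at most 0.0109, taking for miR-130b-3p its summed probe signal there, which exceeded the lowest signal detected on that array. On 0 Gy replicates 1 to 4 the ratio was 6.54, 2.72, 1.99 and 3.02. All irradiated arrays were below all non-irradiated arrays without any scaling, 7 Gy replicate 2 included. The family was chosen for the opposite differences of this pair, so the separation is a description and no independent check.

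The ratio of miR-130a-3p to miR-721 was 3.54 on 7 Gy replicate 2 and at most 0.00703, 0.00776 and 0.00413 on 7 Gy replicates 1, 3 and 4, where the lowest signal detected on each array exceeded the probes' own sum and was used. On the 0 Gy arrays it was 13.8, 4.62, 0.738 and 0.925. These groups overlapped, because 7 Gy replicate 2 exceeded 0 Gy replicates 3 and 4. miR-130b-3p and miR-130a-3p, which differ at few bases, were also unequal. Their ratio was at least 18.3 on 7 Gy replicate 1, 0.167 on replicate 2 and at least 6.43 on replicate 4. The same ratio was 0.475, 0.589, 2.70 and 3.26 on 0 Gy replicates 1 to 4, and it gave no value on 7 Gy replicate 3, where both were undetected. Ratios given as at most or at least take no account of measurement error.

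**Figure D3:**
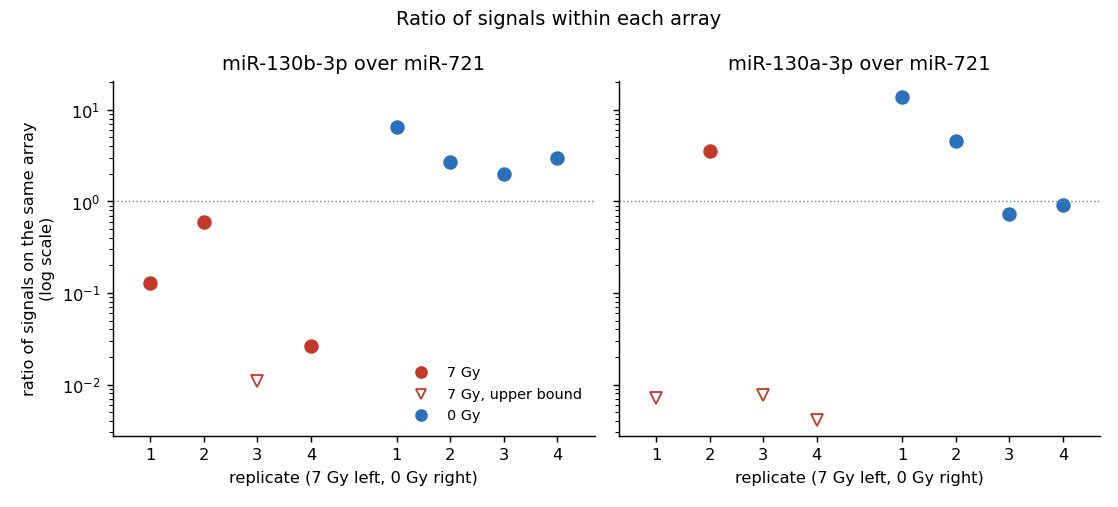
Ratio of signals within each array (log axis), miR-130b-3p over miR-721 on the left and miR-130a-3p over miR-721 on the right, with 7 Gy replicates in red and 0 Gy replicates in blue. Open triangles are upper bounds that take no account of measurement error, for arrays on which the numerator was not detected. For miR-130b-3p all 7 Gy arrays lie below all 0 Gy arrays, whereas for miR-130a-3p the groups overlap.

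Each member was measured by 30 spots per array, and the separate probes from which the sums were made could be compared. miR-721 had 4 probes. Their mean spot signals differed by a factor of at most 1.06 on every array, and all 30 spots were well above background on all 8 arrays. After scaling, each of the 4 probes had all 7 Gy arrays above all 0 Gy arrays, with a ratio of group means of 4.39 to 4.52. The signal of miR-721 therefore did not depend on a single probe. The probes of a miRNA share the arrays, the scaling and the selection of the family. Their separation of the groups, here and for miR-130b-3p, is thus no independent check of the difference.

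miR-130b-3p had 2 probes, and each had all 7 Gy arrays below all 0 Gy arrays after scaling, with ratios of group means of 0.188 and 0.149. The brighter probe exceeded the other by a factor of 1.75, 1.67, 1.75 and 1.75 on the 0 Gy arrays and 1.66 on 7 Gy replicate 2. On 7 Gy replicates 1, 3 and 4 the factor was 1.17, 1.11 and 1.08. On these last arrays 30, 0 and 13 of 30 spots were well above background, and on the other 5 arrays 30 were. With 0 and 13 spots above background on replicates 3 and 4, the factors there compare probes at or near background.

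**Figure D4:**
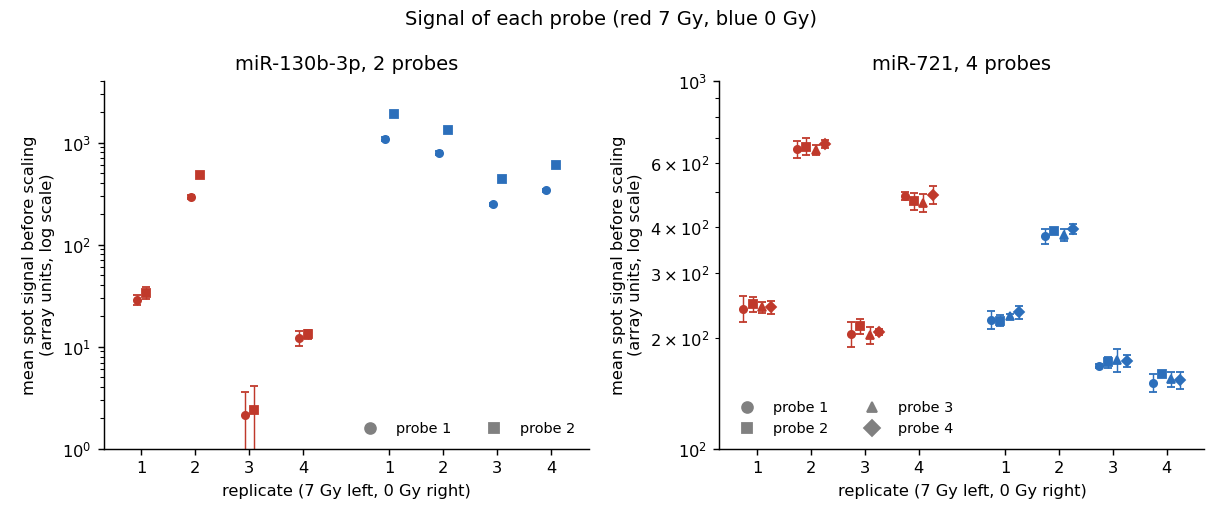
Mean signal of the spots of each probe before scaling (array units, log axes of different range), for the 2 probes of miR-130b-3p and the 4 probes of miR-721, with 7 Gy replicates in red on the left and 0 Gy replicates in blue on the right. Error bars are the SD between spots of a probe and run past the lower end of the axis on 7 Gy replicate 3 of miR-130b-3p. The probes of miR-721 lie close together on all 8 arrays, and those of miR-130b-3p are at or near background on 7 Gy replicates 3 and 4.

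The probes of miR-130a-3p were well above background in 30 of 30 spots on the 4 arrays at 0 Gy and on 7 Gy replicate 2, and in 0 spots on the other irradiated arrays. On those 3 arrays miR-721 had 103, 88.3 and 270 array units. Binding of either miRNA to the probes of the other was not tested. miR-301a-3p had 30 spots well above background on 7 Gy replicate 2, against 30, 22, 1 and 0 on 0 Gy replicates 1 to 4. For miR-301b-3p the numbers were 4 on 7 Gy replicate 2, against 14 and 7 on 0 Gy replicates 1 and 2 and 0 on the remaining arrays. Its 4 probes were unequal, with mean spot signals before scaling of −1.70, 0.381, 27.6 and 45.8 array units on 0 Gy replicate 1. Only the probes with 27.6 and 45.8 there had spots well above background on any array.

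The rest of the seed group and the other arms of the hairpins were not measurable in these sera. RefSeq lists 7 mature mouse miRNAs with the seed AGUGCAA, of which miR-6341, miR-6389 and miR-130c were not among the chosen members. All 3 were on the array and none was detected on any array. The same was found for the 4 opposite arms miR-130a-5p, miR-130b-5p, miR-301a-5p and miR-301b-5p. miR-148a-3p, miR-148b-3p and miR-152-3p, whose seed is an offset version of the same bases, were detected at 7 Gy on replicate 2 only. At 0 Gy they were detected on 4, 4 and 3 arrays. The log2 difference was −0.15 for miR-148a-3p and −0.02 for miR-148b-3p, neither called, with 4 of 4 irradiated arrays and 3 of 4 non-irradiated arrays at the floor, and miR-152-3p was at the floor throughout.

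Likeness to miR-130b-3p and miR-721 was taken as the root mean square difference between log2 profiles, each centred on its mean, over the other 207 fitted miRNAs. Nearest to miR-130b-3p were miR-652-3p (0.34), let-7a-5p (0.48) and miR-30c-5p (0.48), with log2 differences between the groups of −0.88, −0.59 and −0.98. At 7 Gy they were at the floor on 4, 4 and 3 of 4 arrays, and at 0 Gy on 0, 2 and 1, so the floor sets much of this likeness. On 0 Gy replicates 3 and 4, for example, let-7a-5p had scaled signals of 7.85 and 15.8. Nearest to miR-721 were miR-3102-5p (0.21), miR-6995-5p (0.31) and miR-3473e (0.38), with log2 differences of 1.39, 1.40 and 1.20. They were at the floor on none of the 7 Gy arrays and on 1, 1 and 4 of the 0 Gy arrays. None of the other family members was among these, and of the 6 only miR-3473e was called.

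Several miRNAs of blood cells and liver were missing on the same irradiated arrays as miR-130a-3p. Of 5 platelet and leukocyte miRNAs, the summed scaled signal was 7.17 to 727 at 7 Gy and 243 to 2030 at 0 Gy. On 7 Gy replicates 1, 3 and 4 only miR-223-3p of these was detected, and miR-142a-3p, miR-142a-5p, miR-150-5p and miR-126a-3p were not. For 5 of 6 listed red blood cell miRNAs found on the array, the sum was 7323 to 25822 at 7 Gy and 16446 to 80870 at 0 Gy. These sums were made up differently. miR-451a had a scaled signal of 83.5, 14871, 32.9 and 10.6 on 7 Gy replicates 1 to 4, against 2762 to 67369 at 0 Gy. miR-486a-5p had 12661, 2282, 25788 and 7312 on the same 7 Gy arrays, against 6501 to 34551 at 0 Gy, and these ranges overlapped. Of the others, miR-16-5p and miR-144-3p were detected at 7 Gy on replicate 2 only, and miR-144-5p on no irradiated array. The liver miRNA miR-122-5p was detected at 7 Gy on replicate 2 only, with a scaled signal of 806, and had 5.26 to 442 at 0 Gy. The part of these cell types, and of the labelling signal, in the differences of the family was not tested.

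The direction of miR-130b-3p and of miR-721 was the same under 16 of 16 other processing settings or subsets of arrays. The family was chosen for these directions on the same arrays, so this sameness describes the processing and is no independent check. That of miR-130a-3p was not. The slide-row and replicate blocks could not move these differences, since each block held the groups in equal number. The log2 difference lay between −4.33 and −0.55 for miR-130b-3p and between 0.48 and 2.22 for miR-721. For miR-130a-3p it was below 0 in 13 of these settings or subsets, above 0 in 2 and at 0 in 1. Relative to the median of all fitted miRNAs, which the scaling itself moved between −0.12 and 0.50, the difference over 7 scalings was −1.83 to −1.05 for miR-130b-3p, −0.87 to −0.67 for miR-130a-3p and 0.57 to 1.72 for miR-721. In the same order of miRNAs, the values without 7 Gy replicate 2 were −1.15, −1.14 and 1.54. Within slide row 1 they were −1.55, −1.31 and 1.33, and within slide row 2 they were −1.15, 0.00 and 1.52. The 0.00 of miR-130a-3p, the subset counted above as at 0, was set by the floor and does not show equal signals. In that row miR-130a-3p was detected on 0 Gy replicates 3 and 4, with scaled signals of 75.3 and 74.7, both under the floor. It was not detected on 7 Gy replicates 3 and 4.

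**Figure D5:**
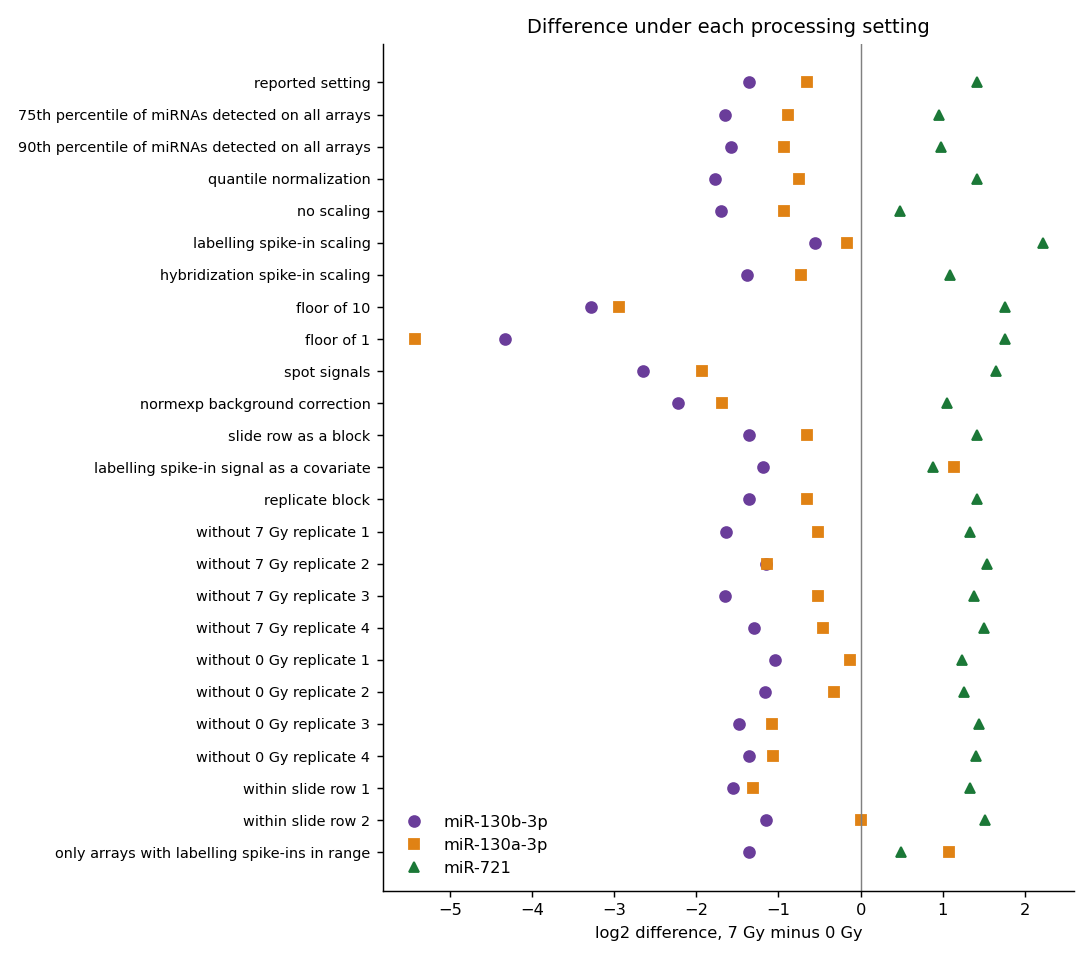
Log2 difference, 7 Gy minus 0 Gy, of miR-130b-3p (purple circles), miR-130a-3p (orange squares) and miR-721 (green triangles) under each processing setting or subset of arrays, named on the vertical axis. miR-130b-3p stays left of 0 and miR-721 right of 0 in each row, and miR-130a-3p lies on both sides.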

How the data were processed

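The authors ran Agilent Feature Extraction 11.5 (version per the submitters' processing notes) and deposited its intensity values, background-subtracted and summed over each miRNA's probes. A miRNA not detected holds 0.1, and arrays were not normalized to each other. A detection flag per miRNA, also deposited, is the other column used. No spot was saturated.

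Following the methods, arrays were shifted to equal 90th percentiles. The methods' lower cut-off of 100 was applied as a floor, whereas they leave unsaid if smaller values were replaced or removed. Groups came from the labels. The 208 miRNAs detected on at least 3 arrays and above the floor on at least 1 were fitted with limma 3.58.1 in R 4.3.3 (Benjamini-Hochberg, no covariate), after a check on simulated data. The number of arrays limits the precision, and p-values measure the spread between arrays, which may be partly technical. Python 3.11.15 with matplotlib 3.10.9 drew the figures.

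The members, marker lists and alternatives were chosen with earlier results of these data known. Named miRNAs were the members, their other arms, miRNAs of the same or offset seed, the 3 nearest profiles of miR-130b-3p and of miR-721, and the markers. Alternatives covered scaling, floor, signal column, background (normexp, offset 50), blocks, a covariate, detection and each array left out. Values within each slide row, and from arrays of accepted labelling spike-ins alone, were added after seeing the data.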

Additional observations from a re-analysis of the deposited data

Results flagged for a closer look

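On 7 Gy replicate 2, miR-130a-3p had a scaled signal of 499 and miR-301a-3p one of 36.2, each far from the other irradiated arrays, on which neither was detected. The gap to the nearest array was 0.999 of the group's range for miR-130a-3p and 0.989 for miR-301a-3p. Chance marks about 1 in 20 groups of freely varying values, a rate that does not hold where the other 3 arrays all lie below detection. Of the 10 member and group combinations examined on scaled signals without a floor, no other was marked.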

How the results depend on the processing

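The log2 difference (7 Gy minus 0 Gy) of miR-130b-3p was −1.65 and −1.58 with the 75th and 90th percentiles taken over miRNAs present on all arrays, −1.77 with quantile normalization, −1.70 with no scaling and −0.55 with labelling spike-in scaling. It was −3.28 with a floor of 10, −4.33 with a floor of 1, −2.65 with spot signals and −2.22 with normexp. Within slide rows 1 and 2 it was −1.55 and −1.15, and with 1 array left out −1.65 to −1.05. miR-130a-3p was at −2.94 and −5.43 with floors of 10 and 1. It was at 1.14 with the labelling covariate (the labelling spike-in signal of each array) and at 1.08 on only the arrays with these spike-ins in range, which leave 1 irradiated array, and the cause was not tested. With 1 array left out it was −1.14 to −0.13. miR-721 was at 0.48 with no scaling, 2.22 with labelling spike-in scaling and 0.49 on the arrays in range, and at 1.23 to 1.54 with 1 array left out. miR-301a-3p was at 0.11 and −0.71 with floors of 10 and 1, 0.10 with spot signals and 0.30 with normexp, and miR-301b-3p at −0.69 with a floor of 1 and 0.30 with normexp. With 1 array left out both stayed at 0.

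Against 4 higher and 4 lower miRNAs, limma called 7 and 11 with the 75th percentile, 6 and 1 with the 90th percentile of miRNAs detected on all arrays, 2 and 4 with quantile normalization, 9 and 19 with a floor of 10, 2 and 6 with a floor of 1, 19 and 15 with spot signals, 2 and 11 with normexp, and 18 and 8 with a block for slide row. Limma called 0 and 0 without any scaling (at an unadjusted p under 0.05, 1 and 17), with labelling spike-in scaling (26 and 3), with hybridization spike-in scaling (10 and 11) and with the labelling covariate (12 and 21). The methods' t-test gave 34 and 14 at 1.5-fold, and 1 and 1 after adjustment. The published list of changed miRNAs is shorter in each direction than these t-test lists before adjustment. It names no member of the family. The reason for the difference was not tested. With 1 array left out, limma called 0 to 48 higher and 0 to 11 lower, with 48 and 11 without 7 Gy replicate 2. The lowest counts were 0 and 1 without 0 Gy replicate 1 (24 and 10 unadjusted) and 0 and 0 without 0 Gy replicate 2 (23 and 12 unadjusted).

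The replicate block left the differences at −1.35, −0.66 and 1.42 for miR-130b-3p, miR-130a-3p and miR-721, and at 0 for both miR-301 members, and limma called 0 and 0 (47 and 18 unadjusted). Arrays of the same replicate number had deviations that correlated at −0.34, 0.43, 0.55 and 0.42 for numbers 1 to 4. Not every array correlated best with its own number. The labels do not say whether equal numbers mark a pair, and these correlations cannot decide it. The floor limits the sizes of all members, and the limit of detection those of all but miR-721.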

Other observations

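A run of 5 G is a feature that miR-721 shares with few miRNAs. The motif GGGGG, searched on the given strand of mature RefSeq sequences after the values of miR-721 had been seen, was found in 39 of 1608 miRNAs on the array with a sequence (2.43%), counting longer G runs too. Of 177 fitted miRNAs with a sequence, 13 held it, miR-721 included, with a median log2 difference (7 Gy minus 0 Gy) of 1.40. The median was 0.07 over the 164 without it and 0.17 over all 208 fitted miRNAs. Only miRNAs above the floor on at least 1 array after scaling were fitted, and the largest scaling factors were those of 7 Gy replicates 1 and 3. The medians were taken under this scaling alone, and with no scaling miR-721 itself went from 1.42 to 0.48. It was also part of the reason for choosing the family. The part of the scaling and of the floor in these medians was not tested. None of the 13 was called by limma in either direction. Of the 3 miRNAs nearest to miR-721 by profile, miR-6995-5p held the motif and miR-3102-5p and miR-3473e did not. This is a description of these arrays, and no test was run on it.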
